A study of Mus musculus with 18 samples.

Results

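The genes described here mark the 2-cell-like (2C-like) state. They are 8 genes, Zscan4b, Zscan4c, Zscan4d, Zscan4e, Zscan4f, Tcstv1, Tcstv3 and Zfp352, chosen by their symbols among the 45706 genes of the count table, and all 8 were found there. RNA was sequenced from mouse induced pluripotent stem cells (iPSCs) that were wild type for Hmga2 (wt, 1 clone) and from Hmga2 KO clone #1 (KO#1) and clone #2 (KO#2), with 3 biological replicates of each at each time point and 18 libraries in all. Hmga2 encodes an architectural chromatin protein that binds AT-rich DNA. At 0 h the iPSCs were kept over mitotically inactivated fibroblasts, in medium with serum, leukaemia inhibitory factor and inhibitors of MEK and GSK3. At 24 h they had been induced into epiblast-like cells (EpiLCs), off feeders, with Activin A and bFGF, on plates coated with Geltrex. Each line is 1 clone, so that a difference between genotypes cannot be told apart from a difference between clones.

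The 2C-like state is a rare and transient condition in cultures of mouse pluripotent stem cells. Cells in it transcribe genes that the embryo turns on at the 2-cell stage, when its own genome is first activated, and many of these genes are driven by retroviral repeats of the MERVL family. Zscan4 genes encode nuclear proteins with a SCAN domain and zinc fingers, known for telomere lengthening by recombination. Tcstv1 and Tcstv3 belong to a small family expressed in the 2-cell embryo, and Zfp352 encodes a zinc finger protein of the same stage. In a culture, a level summed over all cells rises when more cells enter the state or when each such cell holds more of the RNA, and bulk libraries cannot tell these apart.

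The Zscan4 members lie close together on chromosome 7. In GENCODE M21 (GRCm38), Zscan4b is at chr7:10900740-10905050, Zscan4c at chr7:11005745-11010547, Zscan4d at chr7:11161374-11166159, Zscan4e at chr7:11306378-11310682 and Zscan4f at chr7:11397915-11402318. The annotation holds 9 Zscan4 loci over 819.9 kb. Tcstv1 (chr13:119893388-119894785) and Tcstv3 (chr13:120316878-120318178) are 422.1 kb apart, and Zfp352 is alone on chromosome 4 (chr4:90218820-90225702). GENCODE gives all 8 as protein-coding genes with no overlapping gene, while RefSeq lists Zscan4e as a pseudogene.

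The copies are so alike that reads cannot always be assigned to 1 of them. The longest transcripts of Zscan4b and Zscan4e were 99.7% identical, those of Zscan4c and Zscan4f 99.6%, and the other Zscan4 pairs 96.6% to 97.8%. Tcstv1 and Tcstv3 were 89.7% identical. Of the stretches of 75 bases that make up each gene's exons, 83.2% of those of Zscan4b, 78.6% of Zscan4c, 84.5% of Zscan4e and 83.4% of Zscan4f were also found in another annotated gene. The share was 39.5% for Zscan4d, 6.9% for Tcstv1, 14.3% for Tcstv3 and 2.9% for Zfp352. The split of counts between Zscan4 copies is therefore uncertain, and the sum over the 5 copies is given beside the single genes.

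The RefSeq promoter table (GRCm38.p6) held a window for Zscan4b, Zscan4c, Zscan4d, Zscan4f and Zfp352. The 250 bases before each RefSeq start are shown because the promoters of the Zscan4 copies are nearly the same. The windows are Zscan4b, chr7:10905051-10905300, minus strand; Zscan4c, chr7:11005495-11005744, plus strand; Zscan4d, chr7:11166149-11166398, minus strand; Zscan4f, chr7:11397665-11397914, plus strand; and Zfp352, chr4:90218570-90218819, plus strand. Capitals mark TATAAA and TGATTCAA in Zscan4 and GGACAACACACC in Zfp352.
Zscan4b: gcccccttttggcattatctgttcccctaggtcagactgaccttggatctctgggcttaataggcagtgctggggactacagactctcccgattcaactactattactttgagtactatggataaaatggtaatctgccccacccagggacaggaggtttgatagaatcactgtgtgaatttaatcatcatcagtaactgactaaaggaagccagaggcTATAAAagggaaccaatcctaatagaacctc
Zscan4c: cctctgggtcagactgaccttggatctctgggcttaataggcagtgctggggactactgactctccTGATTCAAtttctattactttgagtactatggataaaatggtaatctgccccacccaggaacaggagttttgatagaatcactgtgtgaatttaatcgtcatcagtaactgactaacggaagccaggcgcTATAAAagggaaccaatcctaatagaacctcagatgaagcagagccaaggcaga
Zscan4d: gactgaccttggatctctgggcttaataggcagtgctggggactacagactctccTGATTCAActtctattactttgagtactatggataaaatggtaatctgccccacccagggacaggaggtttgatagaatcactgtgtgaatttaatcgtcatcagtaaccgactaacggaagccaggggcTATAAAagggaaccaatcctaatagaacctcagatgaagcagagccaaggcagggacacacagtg
Zscan4f: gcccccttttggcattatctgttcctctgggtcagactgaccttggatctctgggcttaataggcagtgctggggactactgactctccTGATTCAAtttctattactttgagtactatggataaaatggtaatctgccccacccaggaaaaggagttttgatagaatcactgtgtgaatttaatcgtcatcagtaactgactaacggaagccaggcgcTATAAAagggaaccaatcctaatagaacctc
Zfp352: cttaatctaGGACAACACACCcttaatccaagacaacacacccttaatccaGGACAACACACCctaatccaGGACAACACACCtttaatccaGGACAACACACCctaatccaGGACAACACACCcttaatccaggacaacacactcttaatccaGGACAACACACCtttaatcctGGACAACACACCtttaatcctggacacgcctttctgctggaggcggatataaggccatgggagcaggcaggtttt

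The Zscan4 windows, with the 50 bases after the start included, were 95.3% to 99.3% identical, highest between Zscan4c and Zscan4f. TATAAA, the core of a TATA box, stood in all 4 Zscan4 windows, 31 bases before the start of Zscan4b and Zscan4f, 54 before Zscan4c and 65 before Zscan4d. TGATTCAA stood in Zscan4c, Zscan4d and Zscan4f, 184, 195 and 161 bases before their starts, and its letters were not in the Zscan4b window. Both strands were searched and no matches overlapped. Of 32851 RefSeq windows of 250 bases before a start, 12.368% held TATAAA and 0.539% held TGATTCAA. Zfp352 held neither, and its window had 7 copies of GGACAACACACC, which was found in 1 window of the table. TGATTCAA and GGACAACACACC were chosen after the sequences were seen, and the matches are descriptions of sequence only.

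Total counts were between 3466436 and 23872837 per library, and 3 counts, taken as the lowest detectable level, came to 0.116 to 0.984 CPM (counts relative to the TMM-scaled library total, a limit that covers counting error only). The targeted gene was checked first. Hmga2 lay between 13.3 and 22.4 CPM in wt cells at 0 h, between 1.75 and 10.2 in KO#1 and between 1.84 and 8.25 in KO#2. At 24 h it was 5.51 to 5.93 CPM in wt cells and 0.871 to 3.67 in KO#1, but 10.5, 3.02 and 3.48 in KO#2, so that 1 of these libraries was above all 3 wt libraries. The sources used here do not say which part of the gene is deleted, and the samples of that clone are called the libraries labelled KO#2. Naive pluripotency markers (Nanog, Klf2, Klf4, Esrrb, Tfcp2l1, Zfp42, Prdm14 and Nr0b1) summed to 2360 to 3680 CPM in all 0 h libraries and to 296 to 688 at 24 h. Protein-coding genes held 76.3% to 84.7% of the counts in the libraries labelled KO#2 and 41.3% to 63.4% in the wt and KO#1 libraries at 24 h. At 0 h they held 52.6% to 66.7% in wt cells and 62.0% to 77.4% in KO#1, whose replicate 3 had the 77.4% and the highest level of each of the 8 genes among the KO#1 libraries of 0 h. The part of this share in the levels was not tested.

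All 8 genes passed the filter on low counts, Tcstv3 only through the libraries labelled KO#2 at 0 h, and in each of them the highest of the 18 libraries was replicate 3 of the libraries labelled KO#2 at 0 h. The summed Zscan4 level was 16.1, 15.5 and 8.42 CPM in wt cells at 0 h. It was 5.08, 4.38 and 14.9 CPM in KO#1, and 52.4, 73.2 and 174 CPM in the libraries labelled KO#2, given as replicates 1, 2 and 3. Every library labelled KO#2 at 0 h was above every other library of the study, and its replicates spread over more than a 3-fold range.

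At 24 h the summed level was 32.1, 18.6 and 10.3 CPM in wt cells. It was 15.1, 18.7 and 3.42 CPM in KO#1, and 14.1, 19.3 and 32.6 CPM in the libraries labelled KO#2. The 3 lines overlapped at this time point. By group means (± SD, n = 3 each), the order was 99.7 ± 64.8 CPM in KO#2 at 0 h, 22.0 ± 9.55 in KO#2 at 24 h, 20.3 ± 11.0 in wt at 24 h, 13.3 ± 4.26 in wt at 0 h, 12.4 ± 7.98 in KO#1 at 24 h and 8.14 ± 5.91 in KO#1 at 0 h. Only the first of these did not overlap with its neighbour.

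**Figure D1:**
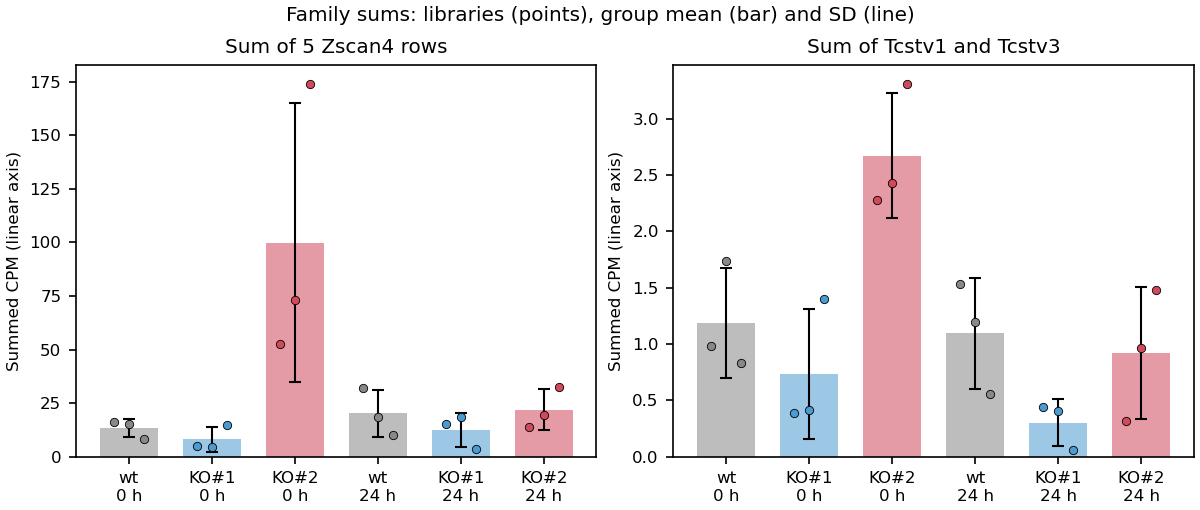
Summed CPM (linear axis) of the 5 Zscan4 genes, left, and of Tcstv1 and Tcstv3, right, in each group. Points are libraries, bars are means and lines are SD (n = 3). The 3 libraries labelled KO#2 at 0 h lie between 52.4 and 174 CPM for Zscan4 and between 2.28 and 3.31 CPM for Tcstv.

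The first comparison asked how the lines differ before induction. Zscan4c, Zscan4d, Zscan4e and Zscan4f were higher in the libraries labelled KO#2 than in wt cells at 0 h, by 2.70 to 3.49 on the log2 scale. These were 4 of the 8 genes, where 21.5% of the 16619 genes tested were called higher in this comparison, and 0 members were lower. Zscan4b, Tcstv1, Tcstv3 and Zfp352 did not pass the threshold of an adjusted p-value under 0.05 (edgeR quasi-likelihood test, Benjamini-Hochberg adjustment over all genes). The median log2 fold change of the 8 was 2.17, against 0.10 over all genes. For 6 of the 8 the groups did not overlap, as was so in this direction for 29.7% of all genes.

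Zscan4f, the copy with the highest level per kilobase of exon in every group, had 7.54, 6.61 and 3.84 CPM in wt cells and 21.9, 35.9 and 78.4 CPM in the libraries labelled KO#2. The lowest of the latter was above the highest wt library, and the log2 fold change was 2.96 (SE 0.64, adjusted p = 0.00217). Zscan4c had 2.30, 2.94 and 1.00 CPM in wt cells and 12.4, 17.9 and 35.8 CPM in the libraries labelled KO#2. The groups did not overlap, and the log2 fold change was 3.44 (SE 0.69, adjusted p = 0.00135).

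Zscan4d, the copy with the most sequence of its own, had 1.97, 1.38 and 0.917 CPM in wt cells and 6.91, 13.0 and 24.5 CPM in the libraries labelled KO#2. It also showed no overlap, with a log2 fold change of 3.49 (SE 0.77, adjusted p = 0.00261). Zscan4e was at 0, 3.12 and 1.08 CPM in wt cells and at 7.35, 3.78 and 20.8 CPM in the libraries labelled KO#2 (log2 fold change 2.70, SE 0.96, adjusted p = 0.0343). This was the weakest of the 4 calls and was lost without wt replicate 1, without wt replicate 3 or without KO#2 replicate 3. It was also lost by DESeq2 (adjusted p = 0.0958) and by edgeR with the replicate number as a block (adjusted p = 0.0881). The other 3 calls held whichever library was left out. Zscan4b, nearly identical to Zscan4e in sequence, had 4.26, 1.47 and 1.58 CPM in wt cells and 3.82, 2.56 and 14.1 CPM in the libraries labelled KO#2, and these overlapped (log2 fold change 1.64, SE 0.79, adjusted p = 0.107). Summed over the 5 copies, the log2 fold change was 2.92 (SE 0.63), or 7.58-fold, and it was 2.26 without KO#2 replicate 3.

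The genes outside the Zscan4 cluster had smaller fold changes, and none of them passed the threshold. With library totals alone, which moved the median of all genes by 0.45, Zscan4b (2.13, adjusted p = 0.0239) and Zfp352 (1.80, adjusted p = 0.0224) did pass. Without the filter on low counts Zscan4b passed (1.68, adjusted p = 0.00659). Zfp352 had 1.64, 1.19 and 0.417 CPM in wt cells and 1.83, 2.25 and 3.41 CPM in the libraries labelled KO#2, without overlap (log2 fold change 1.35, SE 0.59, adjusted p = 0.0781). Tcstv1 had 0.984, 1.29 and 0.667 CPM in wt cells and 1.79, 2.07 and 2.78 CPM in the libraries labelled KO#2, again without overlap (log2 fold change 1.18, SE 0.64, adjusted p = 0.153). Tcstv3 was detected with 0 to 5 counts per library in wt cells and 8 to 12 in the libraries labelled KO#2 (log2 fold change 0.80, SE 0.86, adjusted p = 0.475). The differences between Zscan4 and these genes were not tested.

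**Figure D2:**
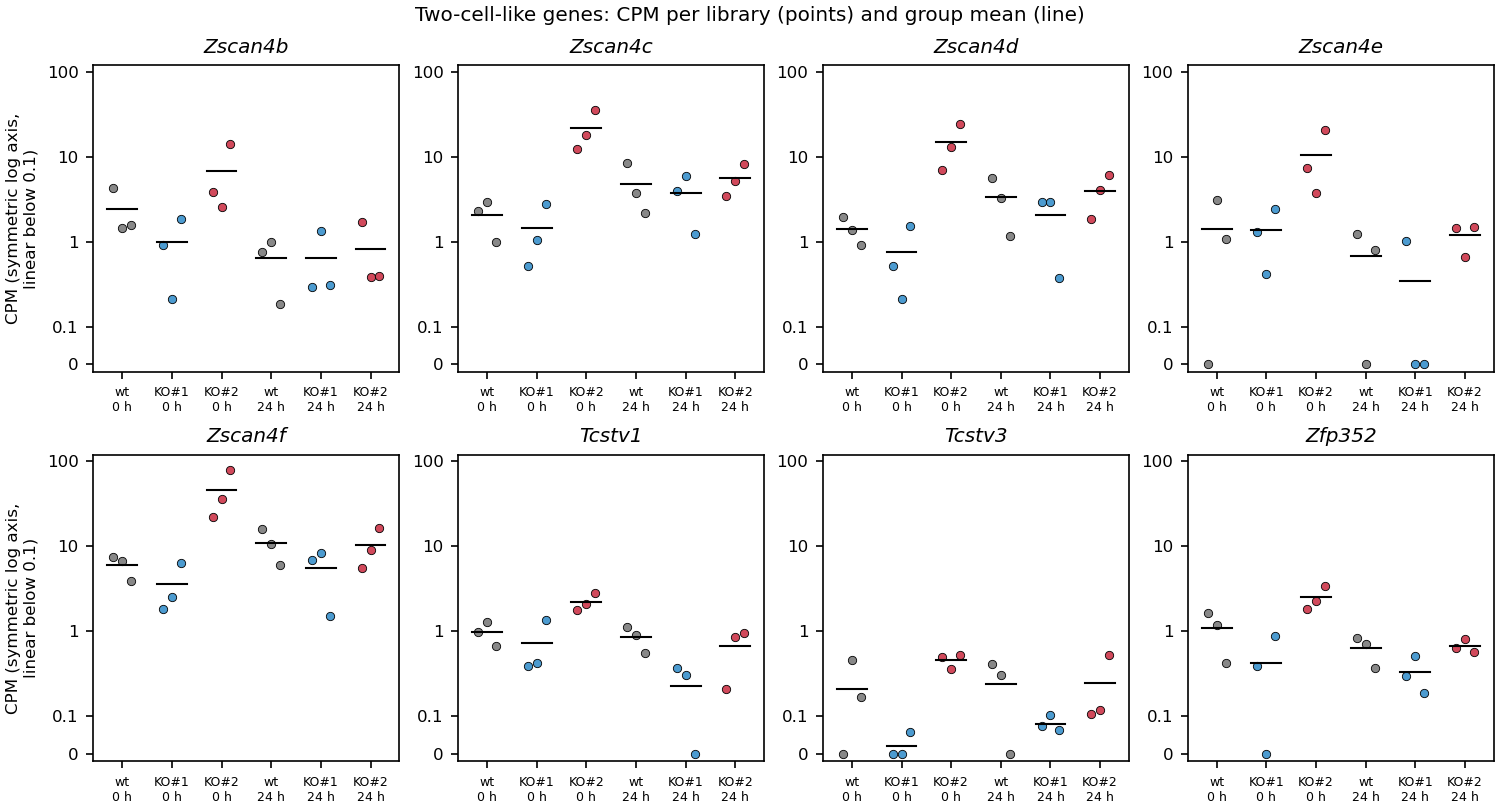
CPM of each gene in each library (points, replicates 1 to 3 from left to right) with the group mean (line). The axis is a symmetric log axis, linear below 0.1. Replicate 3 of the libraries labelled KO#2 at 0 h is the highest point in all 8 panels, and Zscan4f reaches 78.4 CPM there.

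KO#1 did not show the same level. At 0 h, 0 of the 8 genes were called between KO#1 and wt cells by edgeR, 0 by DESeq2 and 0 had an unadjusted p under 0.05, where 6.67% of all genes were called in either direction. All 8 log2 fold changes were below 0, from -2.72 to -0.08, with a median of -0.58. Zscan4f had 1.82, 2.51 and 6.30 CPM in KO#1 and Zscan4c 0.521, 1.04 and 2.80 CPM, and both overlapped with wt cells. In KO#1, replicate 3 was the highest library for all 8 genes. For the Zscan4 sum the log2 fold change was -0.63, with a 95% interval from -1.92 to 0.66.

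Set directly against KO#1 at 0 h, the libraries labelled KO#2 were higher in 7 of the 8 genes, where 15.1% of all genes were called higher. Without Tcstv3, which passed the filter only through the libraries labelled KO#2 at 0 h, 6 of 7 were higher than in KO#1, and 4 of 7 were higher than in wt cells. Both comparisons at 0 h use the same KO#2 libraries and are not independent. No gene of the 8 overlapped between the clones, as was so in this direction for 23.6% of all genes. The log2 fold change was 4.03 for Zscan4d (SE 0.78, adjusted p = 0.00172), 3.76 for Zscan4c (SE 0.69, adjusted p = 0.00124) and 3.59 for Zscan4f (SE 0.65, adjusted p = 0.00113). It was 2.78 for Zscan4e (adjusted p = 0.0386) and 2.58 for Zscan4b (adjusted p = 0.0259).

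Zfp352 had 0.391, 0 and 0.876 CPM in KO#1 at 0 h, below all 3 libraries labelled KO#2 (log2 fold change 2.24, SE 0.61, adjusted p = 0.0125). Tcstv1 had 0.391, 0.418 and 1.34 CPM in KO#1 and did not pass (log2 fold change 1.44, SE 0.64, adjusted p = 0.0992). Tcstv3 passed (adjusted p = 0.0386), but KO#1 held only 1 count of it over 3 libraries against 31 in the libraries labelled KO#2, a ratio of 13.5 after scaling with an exact 95% counting interval from 2.26 to 552. The count of 7 fell to 4 without KO#1 replicate 1, without KO#1 replicate 2 or without KO#2 replicate 3. Over all genes the calls, in either direction, went from 4393 to 3613, 3298 and 3137. Zscan4c, Zscan4d, Zscan4f and Zfp352 passed in all 6 of these fits.

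Markers of fibroblasts were measured in the same libraries. The 8 fibroblast markers (Acta2, Thy1, Lox, Dcn, Postn and the collagen genes Col1a1, Col1a2 and Col3a1) summed to 331 to 898 CPM in the libraries labelled KO#2 at 0 h, 110 to 390 in wt cells and 183 to 514 in KO#1, so that the sums overlapped. Called higher than in wt cells were 4 of the 8, Lox, Dcn, Col3a1 and Thy1, where 21.5% of all genes were. Lox, for a collagen cross-linking enzyme, had 118 to 156 CPM in the libraries labelled KO#2, 12.3 to 33.8 in wt cells and 15.6 to 53.4 in KO#1. Dcn, for the proteoglycan decorin, had 3.17 to 4.54 CPM in the libraries labelled KO#2 and 0 to 0.409 in KO#1, so that both genes lay above every wt and KO#1 library of 0 h. Replicate 3, the library with the most Zscan4, had the 898. All 8 markers were detected in every library labelled KO#2, while Dcn was at 0 in the 3 wt libraries at 0 h. The 7 endoderm markers Gata6, Gata4, Sox17, Foxa2, Pdgfra, Sox7 and Dab2, of which 6 were tested, summed to 8.68 to 11.3 CPM in the libraries labelled KO#2, 4.96 to 6.56 in wt cells and 6.26 to 9.64 in KO#1. Against wt cells Gata6 (log2 fold change 3.37), Pdgfra (2.08) and Dab2 (1.88) were called higher and Sox7 (-2.00) lower, where 21.5% and 16.6% of all genes were. The pluripotency genes Pou5f1 and Sox2 summed to 715 to 806 CPM in the libraries labelled KO#2 and 1260 to 1810 in wt cells. The part of these differences in the Zscan4 levels was not tested.

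The second comparison asked what induction into EpiLCs did in each line. Of the 8 genes, 7 fell between 0 h and 24 h in the libraries labelled KO#2, where 13.3% of all genes were called lower, and 0 rose. The median log2 fold change of the 8 was -1.92, against -0.03 over all genes. The groups did not overlap for 7 of the 8, as was so in this direction for 21.9% of all genes.

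Zscan4f went from 21.9, 35.9 and 78.4 CPM at 0 h to 5.54, 9.02 and 16.4 CPM at 24 h. The highest 24 h library was below the lowest at 0 h, and the log2 fold change was -2.14 (SE 0.59, adjusted p = 0.0124). Zscan4c ended at 3.5, 5.19 and 8.30 CPM (log2 fold change -1.96, SE 0.60, adjusted p = 0.0226) and Zscan4d at 1.83, 4.06 and 6.04 CPM (log2 fold change -1.89, SE 0.65, adjusted p = 0.0404). Zscan4b ended at 1.72, 0.387 and 0.391 CPM (log2 fold change -3.05, SE 0.79, adjusted p = 0.00861) and Zscan4e at 1.46, 0.658 and 1.48 CPM (log2 fold change -3.15, SE 0.93, adjusted p = 0.0188).

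Zfp352 had 0.627, 0.813 and 0.565 CPM at 24 h, all below the 0 h libraries (log2 fold change -1.88, SE 0.55, adjusted p = 0.0166). Tcstv1 had 0.209, 0.851 and 0.956 CPM (log2 fold change -1.69, SE 0.60, adjusted p = 0.0457). Tcstv3, at 2 to 12 counts per library, overlapped between the time points (log2 fold change -0.86, SE 0.73, adjusted p = 0.421). The sum of the Zscan4 copies fell by 2.18 on the log2 scale (SE 0.60). These calls rest on few libraries. Without KO#2 replicate 3 at 0 h the count went from 7 to 0, and without KO#2 replicate 1, 2 or 3 at 24 h it was 4, 3 or 2. Over all genes the calls went from 4324 to 3427 in the first of these fits and to 4104, 3710 or 2534 in the others named. The log2 fold changes of the 8 genes stayed below 0 in all 6 fits without 1 library, and that of the Zscan4 sum ranged from -2.57 to -1.51.

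Markers of other cell types also moved between these time points. The fibroblast markers summed to 331 to 898 CPM at 0 h and 71.0 to 219 at 24 h in the libraries labelled KO#2. The endoderm markers summed to 8.68 to 11.3 CPM at 0 h and 14.5 to 28.4 at 24 h, with Gata6 (2.31), Sox17 (2.65), Pdgfra (1.65) and Sox7 (2.01) called higher and Dab2 (-1.68) lower, where 12.7% and 13.3% of all genes were. At 24 h the same sum was 1.36 to 2.11 CPM in wt cells and 3.30 to 8.08 in KO#1. The part of these differences in the fall of the 8 genes was not tested.

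**Figure D3:**
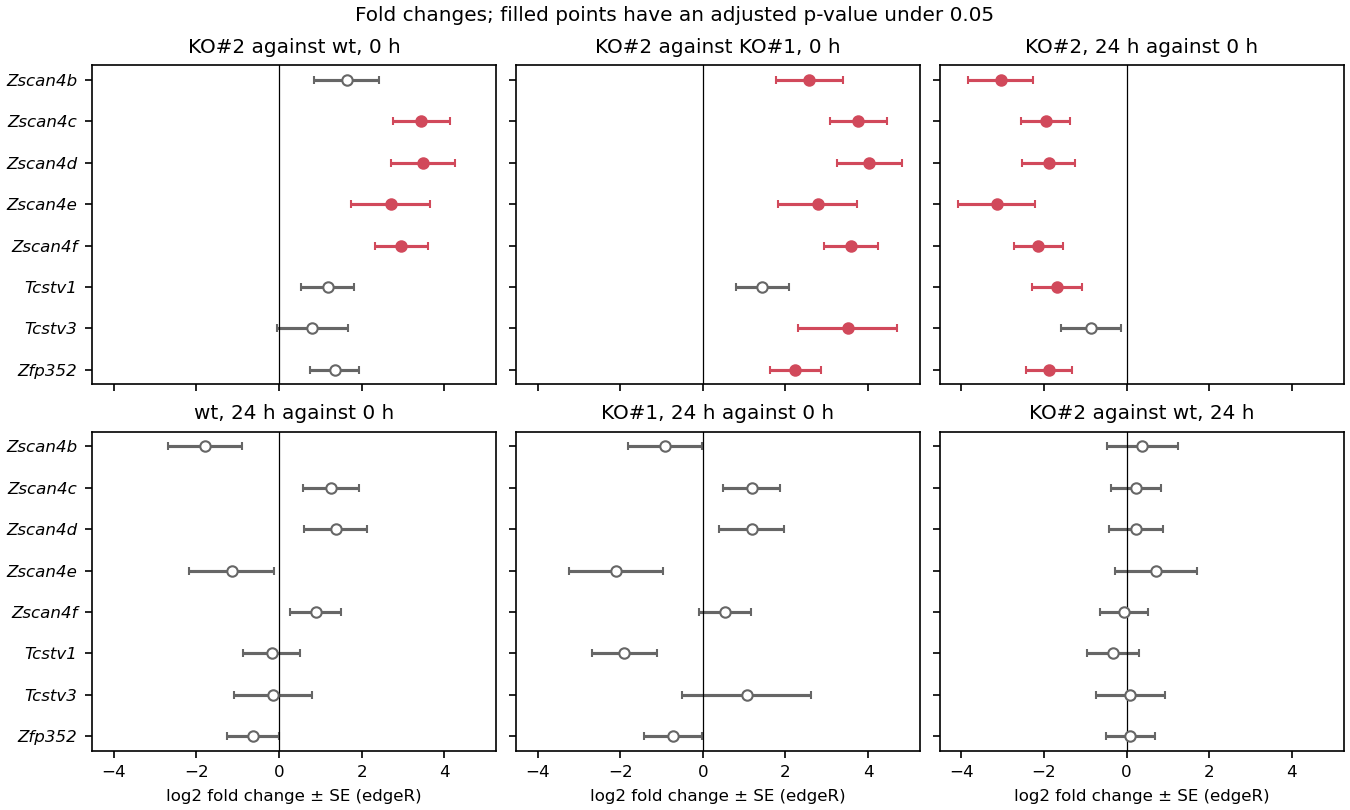
Log2 fold change ± SE (edgeR, n = 3 libraries per group) of each gene in 6 comparisons. Filled points passed an adjusted p-value under 0.05. The upper panels hold 4, 7 and 7 filled points, and the lower panels hold 0.

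In wt cells and KO#1 the same genes did not move one way. In wt cells, 0 of the 8 were called by edgeR between 0 h and 24 h and 0 had an unadjusted p under 0.05, while DESeq2 called 1, Zscan4b. Over all genes edgeR called 50.7% in this comparison, and DESeq2 called 8862 genes. Zscan4c, at 8.51, 3.71 and 2.16 CPM at 24 h, Zscan4d, at 5.69, 3.31 and 1.17 CPM, and Zscan4f, at 15.9, 10.6 and 5.93 CPM, had log2 fold changes of 1.25 (SE 0.68), 1.37 (SE 0.77) and 0.89 (SE 0.62). Zscan4b, at 0.763, 1.00 and 0.185 CPM, was below all 3 wt libraries of 0 h, with a log2 fold change of -1.79 (SE 0.89, adjusted p = 0.099). For the Zscan4 sum it was 0.63 (95% interval -0.63 to 1.89). The wt calls depend on the filter. Without it Zscan4c, Zscan4d and Zscan4f were called higher and Zscan4b lower, with log2 fold changes close to those given here. Over all genes, 8344 were then called.

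In KO#1, 0 of the 8 were called by edgeR, 0 by DESeq2 and 1 had an unadjusted p under 0.05, where 40.8% of all genes were called. That gene was Tcstv1, with 5, 3 and 0 counts at 24 h (0.367, 0.307 and 0 CPM), below its 0 h libraries (log2 fold change -1.90, SE 0.79, adjusted p = 0.0627). Without the filter on low counts edgeR called 3 of the 8, with Tcstv1 (adjusted p = 0.0427), and 6838 genes over all. With library totals alone it called 2, with Tcstv1 (-2.75, adjusted p = 0.00535), and 7331 genes over all. The log2 fold change of the Zscan4 sum was 0.53 (95% interval -0.74 to 1.80), and -0.42 with library totals alone. Fibroblast markers, which summed to 19.0 to 34.6 CPM in wt cells at 24 h and to 38.7 to 51.8 in KO#1, had fallen in these lines as well, with 6 of 8 called lower and 1, Dcn, higher in each. Of all genes, 24.7% were called lower and 26% higher in wt cells, and 20.6% and 20.1% in KO#1.

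The response of the libraries labelled KO#2 was compared with that of wt cells by an interaction term. By edgeR 0 of the 8 genes were called, and 3 had an unadjusted p under 0.05, where 1.47% of all genes were called. Over all genes DESeq2 called 1409, and of the 5 members it tested it called the same 3. They were Zscan4f (difference of -3.03 on the log2 scale, SE 0.85, adjusted p = 0.0731), Zscan4c (-3.20, SE 0.90, adjusted p = 0.074) and Zscan4d (-3.26, SE 1.00, adjusted p = 0.0893). All 8 differences were below 0, with a median of -1.75, and that of the Zscan4 sum was -2.81 (SE 0.84). With 1 library left out the sum ranged from -3.20 to -2.14, and Tcstv3 from -1.81 to 0.17. For KO#1 against wt cells 0 were called by edgeR, 0 by DESeq2 and 0 had an unadjusted p under 0.05, where 0.391% of all genes were called.

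At 24 h no difference between the lines was called in these genes with TMM scaling and the filter on low counts. Between the libraries labelled KO#2 and wt cells, 0 of the 8 were called by edgeR, 0 by DESeq2 and 0 had an unadjusted p under 0.05, where 37.3% of all genes were called. The log2 fold changes lay between -0.33 and 0.71, and that of the Zscan4 sum was 0.11, with a 95% interval from -1.10 to 1.33. On this comparison the scaling had a large effect. With library totals alone, the median of all genes moved by 1.04 and the Zscan4 sum to 1.16. Fibroblast markers at 24 h summed to 71.0 to 219 CPM in the libraries labelled KO#2, above the other lines, and their part was not tested.

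Between the libraries labelled KO#2 and KO#1 at 24 h, 0 of the 8 were called by edgeR, 0 by DESeq2 and 1 had an unadjusted p under 0.05, where 35.4% of all genes were called. All 8 log2 fold changes were above 0, from 0.43 to 1.73. With library totals alone, which moved the median of all genes by 1.07, 7 of the 8 were called higher. Between KO#1 and wt cells at 24 h, 0 were called by edgeR, 0 by DESeq2 and 1 had an unadjusted p under 0.05, where 9.86% of all genes were called. That gene was Tcstv1, with 19, 9 and 9 counts in wt cells against 5, 3 and 0 in KO#1, which did not overlap in CPM (log2 fold change -1.98, SE 0.77, adjusted p = 0.123). The Tcstv sum was 1.09 ± 0.494 CPM in wt cells and 0.304 ± 0.21 in KO#1 (SD, n = 3 each), near the lowest detectable level. Its log2 fold change was -1.89 (95% interval -3.37 to -0.41) between KO#1 and wt cells. Between the libraries labelled KO#2 and KO#1 it was 1.66 (95% interval 0.20 to 3.11). These intervals are not adjusted for the number of comparisons, rest on 1 to 6 counts per KO#1 library and are not used as tests.

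The make-up of the Zscan4 counts differed between the time points in wt cells. Zscan4f held 42.6% to 46.9% of the summed Zscan4 counts in the wt libraries at 0 h and 49.5% to 57.8% at 24 h. Zscan4b and Zscan4e, the pair closest in sequence, together held 26.5% to 31.7% at 0 h and 5.38% to 9.64% at 24 h. Zscan4c and Zscan4f together went from 57.4% to 61.5% at 0 h to 76.1% to 78.9% at 24 h, and neither pair's shares overlapped between the times. The wt sums at 0 h were only 49, 169 and 101 counts.

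In the libraries labelled KO#2 the share of Zscan4b and Zscan4e was 8.66% to 21.3% at 0 h, below all 3 wt libraries, and 5.41% to 22.7% at 24 h. In KO#1 it was 14.3% to 43.6% at 0 h and 7.10% to 9.09% at 24 h. Summed, Zscan4b and Zscan4e came to 3.84 ± 1.03 CPM in wt cells at 0 h and 17.5 ± 15.3 CPM in the libraries labelled KO#2, while Zscan4c and Zscan4f came to 8.07 ± 2.81 and 67.5 ± 41.6 CPM (SD, n = 3 each). The shares were not tested, and how reads common to several copies were assigned is not given in the sources used here.

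**Figure D4:**
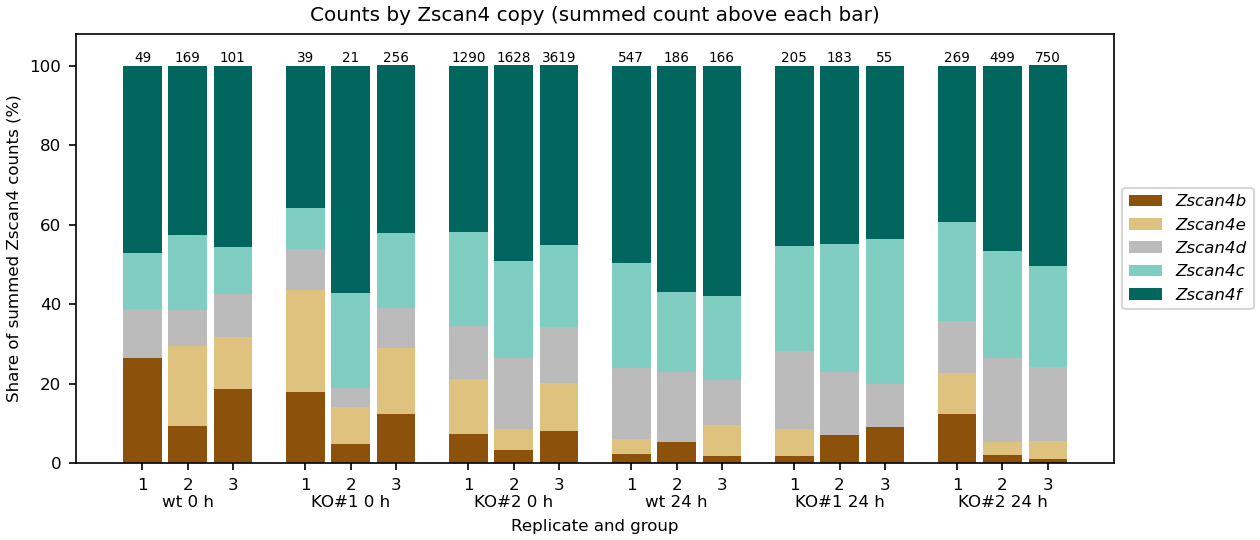
Share (%) of the summed Zscan4 counts on each copy in each library, with the summed count above the bar. In wt cells Zscan4b and Zscan4e together hold 26.5% to 31.7% at 0 h and 5.38% to 9.64% at 24 h.

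Per kilobase of exon, Zscan4f had the highest mean level of the 8 in every group, from 1.81 ± 1.23 CPM per kb in KO#1 at 0 h to 23.2 ± 15.0 in KO#2 before induction (SD, n = 3 each). In those libraries, Zscan4c followed with 9.69 ± 5.36, Zscan4d with 6.52 ± 3.93, Zscan4e with 5.94 ± 5.01 and Zscan4b with 3.79 ± 3.51 CPM per kb. Tcstv1 had 1.58 ± 0.367, Zfp352 1.10 ± 0.359 and Tcstv3 0.588 ± 0.113. Since most Zscan4 sequence is common to several copies, the order among these copies is not certain.

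Over the 18 libraries, the 28 pairs of members had correlations of log2 CPM between 0.417 and 0.969, with a median of 0.648. On deviations from group means they were between -0.0463 and 0.957, with a median of 0.454. The points share libraries, depth and, among the Zscan4 copies, reads, so these values are descriptive. Outside the members, the genes most like the summed Zscan4 level were BC080695 (r = 0.944 over 18 libraries, 0.923 on deviations from group means), Pramef25 (0.942 and 0.822) and Gm8300 (0.929 and 0.859). Of the 10 most alike, Pramef25, Gm8300, Gm2016 and Gm12794 are on the list of other 2C-like genes, and the others were BC080695, Stam, BC147527, Cog5, AA792892 and Gm28940. BC147527 (0.867 and 0.589) had 15 to 29 counts in the libraries labelled KO#2 at 0 h and at most 5 elsewhere. Gm28940 (0.845 and 0.444) had 11 to 14 counts there and at most 4 elsewhere. Both reached the filter's count level only through those libraries, which tilts their r over the 18 libraries.

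The rest of the 2C-like programme was followed with a list of 53 other genes, of which 48 were in the table and 39 were tested. In the libraries labelled KO#2 against wt cells at 0 h, 24 of the 39 were higher, where 21.5% of all genes were, and 0 lower, with a median log2 fold change of 2.58. Of the 39, 10 reached the filter's count level in 3 libraries only through the libraries labelled KO#2 at 0 h, so that their entry depended on that group. Among the other 29, 19 were higher than in wt cells, 17 were higher than in KO#1 and 22 fell by 24 h. Their median log2 fold changes were 2.95, 2.02 and -2.15. Those higher than in wt cells included Gm8300 (4.23, adjusted p = 0.000253), AF067061 (4.02, adjusted p = 0.000466), Gm12794 (4.04, adjusted p = 0.00212), Pramef25 (3.46, adjusted p = 0.00354) and the deubiquitinase gene Usp17le (2.58, adjusted p = 0.00222). Gm8300 rose from 0.328, 0.367 and 0.250 CPM in wt cells to 3.90, 6.21 and 7.87 CPM. Against KO#1, 21 were higher, where 15.1% of all genes were, and 0 lower, and 15 genes were higher in both comparisons.

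Between 0 h and 24 h, 25 of the 39 fell in the libraries labelled KO#2 and 1 rose, the deubiquitinase gene Usp26, where 13.3% and 12.7% of all genes did. The median log2 fold change was -2.10. This fall starts from the same 0 h libraries as the comparisons with wt cells and KO#1 and is not independent of them. Leaving out a library also changes how many of the list pass the filter. Without KO#2 replicate 3 at 0 h the counts were 20 higher than wt, 13 higher than KO#1 and 15 lower at 24 h, of 41 tested. The last was 12 of 43 without KO#2 replicate 3 at 24 h and 15 of 45 without replicate 1, and the count against KO#1 was 13 of 45 without KO#1 replicate 2. For time and against KO#1, the calls over all genes in these fits are those given above. In wt cells 3 of the 39 rose and 4 fell with time, where 26% and 24.7% of all genes did. In KO#1 1 rose and 7 fell, where 20.1% and 20.6% of all genes did. In the difference of responses 0 were called for either clone. At 24 h, 7 of the 39 were higher and 3 lower in the libraries labelled KO#2 than in wt cells. Against KO#1 5 were higher and 2 lower. In KO#1 against wt cells 3 were higher and 5 lower. In either direction 37.3%, 35.4% and 9.86% of all genes were called in these comparisons.

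**Figure D5:**
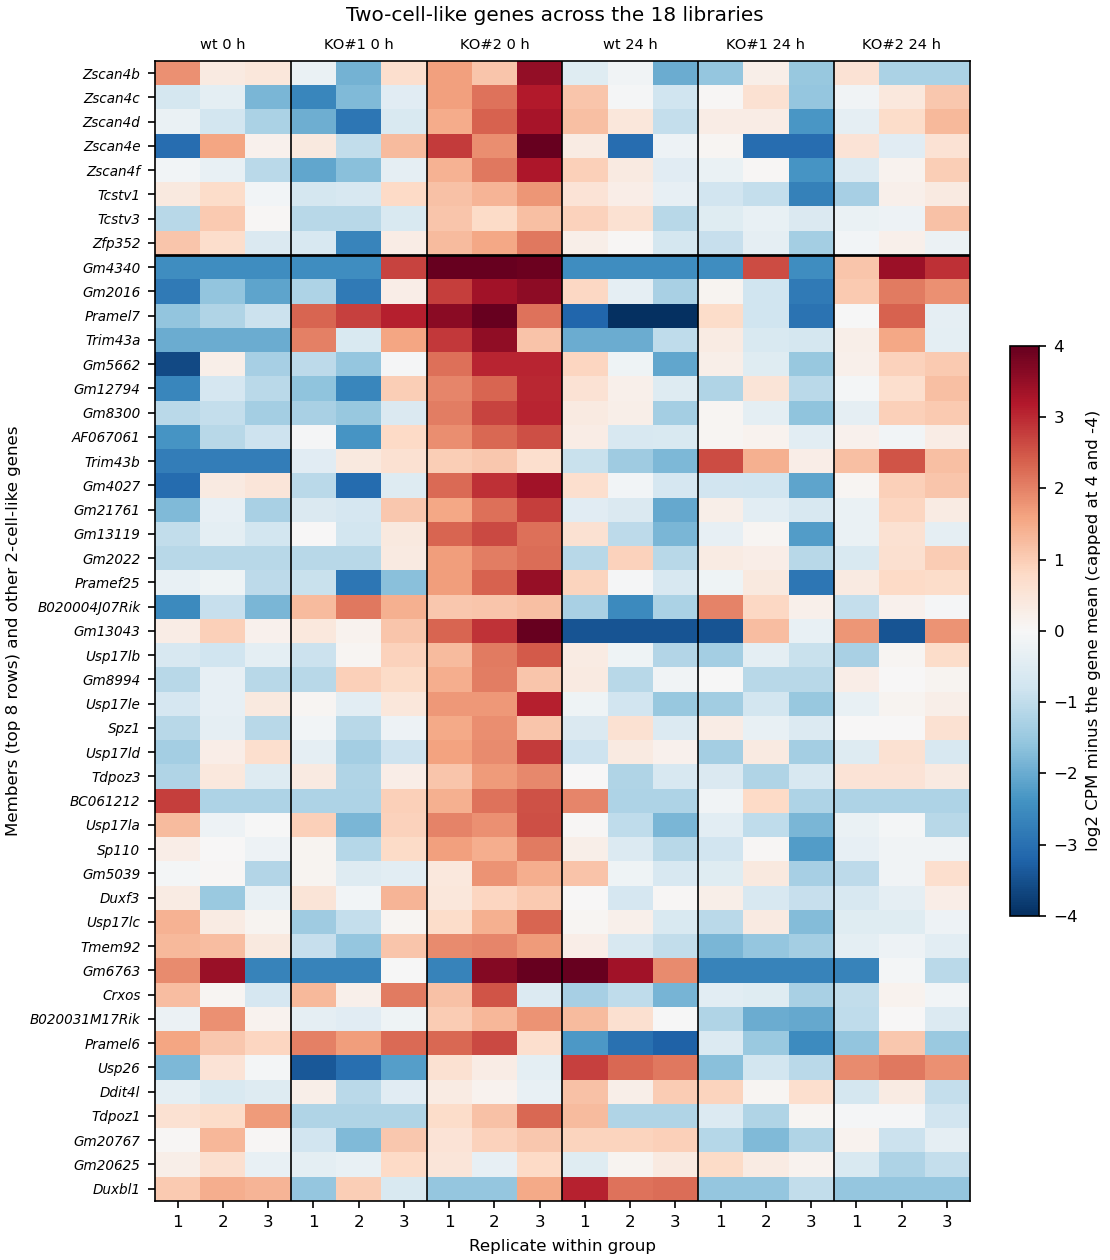
Log2 CPM minus the mean of the gene, capped at 4 and -4, for the 8 members (above the line) and the 39 other 2C-like genes tested (below it), over 18 libraries in 6 groups of 3. Genes below the line are ordered by the difference between KO#2 and wt at 0 h. Red cells gather in the 3 libraries labelled KO#2 at 0 h.

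Not every 2C-like gene followed Zscan4. Pramel7, a PRAME family gene also expressed in the inner cell mass, had 1.31, 1.74 and 2.25 CPM in wt cells at 0 h and 52.7, 71.7 and 19.5 CPM in the libraries labelled KO#2. In KO#1 it had 21.5, 28.8 and 37.1 CPM, and it was called higher than wt in both clones (log2 fold change 3.96 in KO#1, adjusted p = 0.00941, and 4.68 in KO#2, adjusted p = 0.000969). Its lowest KO#2 library was replicate 3, which was the highest for Zscan4. Trim43a and Trim43b were likewise at 0 counts in all 3 wt libraries at 0 h, at 1 to 24 and 4 to 21 counts in KO#1 and at 21 to 133 and 27 to 40 counts in the libraries labelled KO#2.

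Duxf3, which encodes the transcription factor Dux that activates 2C genes, was named after its values were seen. It had 1, 0 and 2 counts in wt cells at 0 h, 3, 1 and 14 in KO#1 and 9, 12 and 13 in the libraries labelled KO#2. The difference from wt cells did not pass the threshold (log2 fold change 2.01, adjusted p = 0.0693), and against KO#1 the log2 fold change was -0.08 (adjusted p = 0.941). Duxf3 reached the filter's count level only through the libraries labelled KO#2 at 0 h. A change in Duxf3 was not resolved at these counts.

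Of 5 genes known as activators of the state, Dppa3 was higher than in wt cells in both clones at 0 h (log2 fold change 2.17 in KO#1, adjusted p = 0.0216, and 2.00 in KO#2, adjusted p = 0.00948), where 3.99% and 21.5% of all genes were called higher. Dppa3 encodes a maternal factor that protects DNA methylation. Its level was 10.1, 14.1 and 4.36 CPM in the libraries labelled KO#2, again lowest in replicate 3. Dppa2 and Dppa4, whose products act upstream of Dux, were not called at 0 h and rose with induction in all 3 lines, by 0.95 and 1.24 in the libraries labelled KO#2 and by 1.87 and 1.88 in wt cells, where 12.7% and 26% of all genes were called higher. Tbx3 fell in all 3 lines, with log2 fold changes of -7.36 in wt cells and -3.15 in the libraries labelled KO#2, where 24.7% and 13.3% were called lower.

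Of 20 genes known as repressors of the state, 5 were higher and 6 lower in the libraries labelled KO#2 than in wt cells at 0 h, where 21.5% of all genes were called higher and 16.6% lower. The lower ones were Chaf1a (-0.92) and Chaf1b (-1.08), subunits of the histone chaperone CAF-1, Trim28 (-0.89) and Setdb1 (-0.97), which act together in H3K9 methylation of retroviral repeats, the H3K9 methyltransferase gene Ehmt2 (-1.09) and the SUMO ligase gene Pias4 (-1.20). The higher ones were Rif1 (1.61), Zmym2 (1.49), Smarca5 (1.12), Mga (1.11) and Smchd1 (1.00). The list had a median of -0.18, against 0.10 over all genes. At 24 h, 7 of the 20 had risen in the libraries labelled KO#2 and 0 had fallen, where 12.7% of all genes were called higher, with a median of 0.52. Trim28 (1.13), Ehmt2 (1.18) and Chaf1b (0.73) were among the 7. In KO#1 against wt cells at 0 h, Smarca5 was higher (0.98) and Setdb1 lower (-0.88), where 3.99% and 2.68% of all genes were called.

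Of 8 genes of telomere maintenance and meiotic recombination, 7 were tested. At 0 h, Terf1, which encodes a shelterin subunit (log2 fold change 1.55, adjusted p = 0.00338), and the 5-methylcytosine dioxygenase gene Tet2 (0.95, adjusted p = 0.0268) were higher in the libraries labelled KO#2 than in wt cells. Dmc1, a meiotic recombinase gene, was lower (-1.03, adjusted p = 0.0473), as it was in KO#1 (-1.90, adjusted p = 0.00987). Of all genes, 21.5% were called higher and 16.6% lower in the libraries labelled KO#2. Tert, for the telomerase protein, had a log2 fold change of 0.26 there (adjusted p = 0.559). With induction Tert fell in all 3 lines, with log2 fold changes of -1.19 in the libraries labelled KO#2, -1.18 in wt cells and -1.29 in KO#1. Tet2 also fell in each line (-1.15, -2.18 and -1.74, in the same order), and Terf2 fell in wt cells (-1.27) and KO#1 (-1.32). Of all genes, 13.3%, 24.7% and 20.6% were called lower with time in these lines. Terc, for the telomerase RNA, went the other way in wt cells (1.76) and KO#1 (2.53), where 26% and 20.1% of all genes rose. Terc was not called over time in KO#2 (-0.87, adjusted p = 0.221).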

How the data were processed

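RNA-seq of 18 libraries was analysed, 3 in each of 6 groups taken from the sample titles. The deposited values, for 45706 genes, are whole numbers and were taken to be counts of reads per gene without normalization. In the study's methods, total RNA came from 3 independent biological replicates, and DESeq2 is named in the submitters' processing notes. Those methods name STAR for alignment to GRCm38 and Salmon and StringTie for quantification. Which of these made the deposited counts, the annotation release and the sharing of reads that match several genes are not given in the sources used here. Gene positions came from GENCODE M21, which held 45143 of the identifiers, and promoters from RefSeq, with no window found for Zscan4e, Tcstv1 and Tcstv3.

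Genes were kept by filterByExpr with a minimum count of 10, scaled by TMM factors and fitted over all 18 libraries with edgeR 4.0.16 in R 4.3.3 (quasi-likelihood F test, 16619 genes). A gene was called where its p-value, adjusted over all genes by Benjamini-Hochberg, was under 0.05. Family sums were fitted in the same model, with no p-value. Standard errors were derived from the F statistic, and 95% intervals from the quantiles of its t distribution. Log2 CPM used a prior count of 2. The comparisons were those of time within line, of lines within time, and of responses. The steps were tested on simulated counts. Alternatives were DESeq2 1.42.0, its size factors (RLE), library totals, no filter, only the groups compared, protein-coding genes, the replicate block and leaving out each library. Figures used Python 3.11.15 and matplotlib 3.10.9.

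All 8 genes are named, with genes of the other lists where called, and the 10 genes most like the Zscan4 sum. The members and lists were chosen with earlier results of these data known. Of 153 pairs of libraries, 0 were identical. Libraries with the same replicate number deviated together in each of 3 pairs only between KO#1 and wt cells at 24 h (r = 0.48, 0.223 and 0.587), where the numbers were taken to pair the samples. Their source is the replicate number in the titles alone.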

Additional observations from a re-analysis of the deposited data

How the results depend on the processing

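Depth limits Tcstv3, Zscan4e and Duxf3, which lie at or near 3 counts in several libraries, and with 3 libraries per group the spread of Zscan4 between replicates limits the rest. DESeq2 called 3 genes for KO#2 against wt cells at 0 h, without Zscan4e, 5 for KO#2 against KO#1 at 0 h, without Zscan4e and Tcstv3, and 6 for time in KO#2, without Zscan4e. DESeq2's size factors in edgeR gave 6 for time in KO#2, without Tcstv1. DESeq2 called 1 gene between 24 h and 0 h in wt cells, where it called 8862 genes over all. In the difference of responses between KO#2 and wt cells it called 3 of 5 tested, and 1409 genes over all. With library totals alone, the genes called were 6 for KO#2 against wt cells at 0 h, with Zscan4b and Zfp352, 8 for KO#2 against KO#1 at 0 h, with Tcstv1, 1 for time in wt cells, 2 for time in KO#1, 1 for KO#2 against wt cells at 24 h and 7 for KO#2 against KO#1 at 24 h. Under that scaling the Zscan4 sum had a log2 fold change of -0.42 for time in KO#1, 1.16 for KO#2 against wt cells at 24 h and 2.05 for KO#2 against KO#1 at 24 h, and the Tcstv sum -2.35, 0.82 and 2.76. Without the filter on low counts, 5 genes were called for KO#2 against wt cells at 0 h, with Zscan4b, 4 were called for time in wt cells, 3 for time in KO#1, 2 for KO#2 against KO#1 at 24 h and 3 in the difference of responses for KO#2. With only the groups compared, 1 of 6 genes tested was called for time in wt cells, and 7749 genes over all. Over all genes, library totals called 7432 for time in wt cells and 7331 for time in KO#1, where TMM called 8429 and 6774. At 24 h they called 10208 for KO#2 against wt cells and 9986 against KO#1, where TMM called 6197 and 5878. Without the filter, 8344 were called for time in wt cells and 6838 for time in KO#1. KO#2 against KO#1 at 24 h had 6100, and the difference of responses for KO#2 1717. For the 0 h comparisons such counts are not given here. The cause of these shifts was not tested.

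Leaving out each library in turn, the genes called ranged from 0 to 6 for time in KO#2, from 4 to 6 for KO#2 against KO#1 at 0 h, and from 0 to 1 for time in KO#1, for KO#2 against KO#1 at 24 h and for the difference of responses of KO#2. The Tcstv sum ranged from -1.99 to -0.46 for time in KO#1, from -1.58 to -0.08 for KO#1 against wt cells at 0 h, from 1.36 to 2.71 for KO#2 against KO#1 at 0 h and from -1.81 to -0.31 for the difference of responses of KO#1. Tcstv3 in the difference of responses of KO#2 ranged from -1.81 to 0.17.

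With the replicate block, 6 genes were called for time in KO#2, 3 for KO#2 against wt cells at 0 h and 7 for KO#2 against KO#1 at 0 h. The block lost Zscan4d in the first and Zscan4e in the second, and between KO#1 and wt cells at 24 h, where the numbers pair the samples, it changed no call of the 8 genes. Elsewhere the libraries share only a number, and 11 of 18 correlated best with their own.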
